A study of Schizosaccharomyces pombe with 6 samples.

Results

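Fission yeast (Schizosaccharomyces pombe) carries many non-coding genes numbered with the prefix SPNCRNA, and 747 of the 1529 SPNCRNA features in the deposited expression table lie between protein-coding genes. They were taken as the features with that prefix whose span overlapped no coding feature on either strand, after 14 numbers given with the rule had been left out, and they make up 747 of 7001 features in all. The other 768 SPNCRNA features overlapped a coding feature. RNA was sequenced from whole cells of 3 strains, mug174Δ (mug174 deleted), red1Δ (given as red1∆ in its title and as a red1 mutation under genotype) and WT, with 2 libraries of each and no treatment. All strains grew in YES medium, a rich medium of yeast extract and glucose, at 32°C. The labels do not say whether the 2 libraries of a strain came from separate cultures or from separate isolates of a deletion, so a p-value speaks only of the scatter among the 6 libraries, part of which may be technical.

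Long non-coding RNAs of this yeast are mostly transcribed by RNA polymerase II and are kept scarce by decay in the nucleus. Red1 is the scaffold of MTREC, a complex that carries unwanted transcripts to the nuclear exosome, a 3′ to 5′ RNase. Some of these transcripts are recognised by Mmi1, a YTH-domain protein that binds the hexamer UNAAAC, where N is any base, and that clears meiotic RNAs from growing cells. Mug174 is the fission yeast relative of coilin, the protein that marks Cajal bodies, nuclear condensates in which small nuclear ribonucleoproteins mature. The comparisons of each deletion with WT therefore address how the level of the intergenic RNAs changes when either nuclear factor is missing.

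The members were 56 to 5123 bases long, with a median of 697 bases. Chromosome I held 313, chromosome II held 287 and chromosome III held 147. The gap to the nearest coding feature ran between 1 and 37325 bases with a median of 372 bases. The label of intergenic holds against coding sequence only, because 226 members overlapped an annotated mRNA outside its coding part in RefSeq, 110 of them on the same strand, and RefSeq describes 96 members as possible alternative UTRs. Reads in such overlaps cannot be assigned to the member alone. Of all 747 members, 328 overlapped another listed non-coding feature, and these may include some of the 226. The sources used here do not give the strand setting of the counting. RefSeq also shows that the prefix covers more than long non-coding RNA: the members include the RNase MRP RNA, the 7SL RNA of the signal recognition particle and several small nucleolar RNAs.

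Sequences of 8 members are shown because the results below turn on them, read 5′ to 3′ on the transcript strand from the RefSeq genome ASM294v3, whose coordinates on these chromosomes match those of the deposited table. Capitals mark TNAAAC, the DNA form of the Mmi1 hexamer, searched on the transcript strand only. The first 6 are the members with the largest rise in red1Δ among those named by the rule that overlap no annotated mRNA, and the last 2 were added after their values had been seen. Members over 300 bases are shown as the stretch of 200 bases with the most hexamers, or as their first 200 bases where they have none.
SPNCRNA.942, whole, chrI:3851024-3851310, plus strand: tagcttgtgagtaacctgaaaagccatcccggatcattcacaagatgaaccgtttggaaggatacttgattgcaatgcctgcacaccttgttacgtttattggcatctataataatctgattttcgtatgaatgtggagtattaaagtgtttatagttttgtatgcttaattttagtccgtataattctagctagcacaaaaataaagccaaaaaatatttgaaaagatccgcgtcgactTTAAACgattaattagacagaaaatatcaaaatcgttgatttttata
SPNCRNA.530, a small nucleolar RNA, whole, chrI:1966483-1966635, minus strand: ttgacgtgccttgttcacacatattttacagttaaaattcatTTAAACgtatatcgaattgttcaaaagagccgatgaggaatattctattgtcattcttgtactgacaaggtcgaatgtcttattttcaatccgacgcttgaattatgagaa
SPNCRNA.405, stretch, chrII:2728601-2728800, plus strand: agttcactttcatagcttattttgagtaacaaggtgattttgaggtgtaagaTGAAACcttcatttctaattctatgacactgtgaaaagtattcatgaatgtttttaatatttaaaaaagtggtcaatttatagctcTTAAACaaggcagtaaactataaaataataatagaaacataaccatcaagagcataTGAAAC
SPNCRNA.286, whole, chrI:2474084-2474170, plus strand: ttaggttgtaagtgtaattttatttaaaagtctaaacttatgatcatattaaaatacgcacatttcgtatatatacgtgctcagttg
SPNCRNA.177, stretch, chrI:1701860-1702059, plus strand: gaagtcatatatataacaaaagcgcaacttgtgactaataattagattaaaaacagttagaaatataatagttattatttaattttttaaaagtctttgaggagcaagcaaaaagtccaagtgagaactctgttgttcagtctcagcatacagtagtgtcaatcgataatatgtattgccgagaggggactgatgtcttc
SPNCRNA.513, stretch, chrIII:2230868-2231067, plus strand: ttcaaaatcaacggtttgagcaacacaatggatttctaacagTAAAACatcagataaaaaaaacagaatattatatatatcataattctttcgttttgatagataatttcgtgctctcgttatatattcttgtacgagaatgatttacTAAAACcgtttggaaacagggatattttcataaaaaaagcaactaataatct
SPNCRNA.1366 (nam2), stretch, chrII:520838-521037, minus strand: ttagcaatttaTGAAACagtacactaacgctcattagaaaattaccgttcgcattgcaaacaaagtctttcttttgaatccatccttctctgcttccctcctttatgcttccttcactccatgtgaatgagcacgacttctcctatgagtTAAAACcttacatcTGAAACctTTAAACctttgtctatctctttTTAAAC
SPNCRNA.1709, a guide RNA for the U2 small nuclear RNA, whole, chrII:1676220-1676335, plus strand: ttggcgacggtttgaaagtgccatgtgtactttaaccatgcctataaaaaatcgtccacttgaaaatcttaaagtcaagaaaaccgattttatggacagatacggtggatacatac

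The hexamer was unevenly spread over these 8. The 200 bases of nam2 held 5 of its 11 hexamers, and 0.0183% of stretches of that length on both strands of chromosomes I to III held as many. SPNCRNA.405 held 3 in 200 bases, as did 0.826% of such stretches, and SPNCRNA.513 held 2, as did 6.0%. Each of these stretches was picked as the richest of its member, while the genome stretches were laid end to end without such a choice. These shares therefore cannot say how rare such a stretch is. At least 1 hexamer stood in 31.9% of all 200-base stretches. SPNCRNA.942 and SPNCRNA.530 held 1 each, beside 42.6% and 25.4% of stretches of their lengths with 1 or more, and SPNCRNA.286, SPNCRNA.177 and SPNCRNA.1709 held none in the bases shown. Over all members, 71.9% held at least 1 hexamer, at 2.13 per kb, against 89.3% and 1.93 per kb in the other SPNCRNA features, which overlap coding sequence, and 80.6% and 1.69 per kb in coding features. A match to these letters is a description and not a binding site.

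The 6 libraries held 16565908 to 18627129 reads assigned to listed features. The deleted genes were almost free of reads in their own strains: mug174 had 1 and 0 reads in mug174Δ, and red1 had 1 and 2 reads in red1Δ, against at least 657 and 2117 reads in WT. Intergenic members took 0.437% and 0.458% of reads in mug174Δ and 0.538% and 0.708% in red1Δ, against 0.438% and 0.510% in WT. The median member stood at 1.89 and 1.76 RPKM (reads per kilobase of feature, scaled to the reads of the library) in mug174Δ and at 2.77 and 3.57 RPKM in red1Δ, against 1.31 and 1.24 RPKM in WT. The second red1Δ library was thus above the first in both measures. Markers of cells in mating or meiosis were a list of 13 genes, of which 11 were tested. The list summed to 320.4 and 333.5 RPKM in mug174Δ and 532.9 and 616.9 RPKM in red1Δ, against 245.0 and 233.7 RPKM in WT. Of the 11, 6 rose in red1Δ and 3 in mug174Δ, beside 48.4% and 19.8% of all features tested. Among those not called were ste11, mei2 and mfm2, with log2 fold changes of -0.06, -0.35 and -0.90 in red1Δ against WT. The largest part of the red1Δ sum was spo5, a meiotic gene and Mmi1 target, at 203.7 and 234.3 RPKM in red1Δ against 1.28 and 2.67 RPKM in WT. In bulk RNA a change in the number of cells of a kind and a change in RNA per cell cannot be told apart. Ribosomal RNA took 4.71% and 3.85% of reads in mug174Δ and 2.87% and 2.97% in red1Δ, against 6.25% and 5.93% in WT, and the part of this difference in the results below was not tested.

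Of the 747 members, 500 reached 1 RPKM in at least 2 libraries and were tested, and 247 did not, 133 of which had 0 reads in every library. Among the tested members 374 reached 1 RPKM in both WT libraries and 78 in neither. Another 25 passed through the red1Δ libraries alone, 1 through the mug174Δ libraries alone and 0 through the WT libraries alone. A member that passes only where it is high had to differ. Such members remain in the counts and medians below, which describe the 500 tested members only. SPNCRNA.286 and SPNCRNA.280, named below, are among the 25, so the filter fixed the direction of their change in red1Δ.

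Loss of Red1 was accompanied by higher levels of many of the tested intergenic RNAs. In red1Δ against WT, 278 of 500 members rose and 24 fell (limma on log2(RPKM + 0.5), adjusted p under 0.05 over all 5949 features tested). The 278 are 55.6% of members, beside 48.4% of all features tested, and the 24 are 4.8%, beside 7.33%. In this fit the share of members that rose was thus near that of all features, while the size of the change was not. The median log2 fold change was 0.99 over members and 0.35 over all features. With the 8 members that had 0 reads in 1 of these strains set at the bound that 3 reads per library give, the members' median was 0.94. By kind, the median was 0.99 over 500 intergenic members, 0.68 over 589 other SPNCRNA features and 0.29 over 4751 coding features. With no filter on low values the gap was smaller, at 0.49 over 747 members and 0.30 over all 7001 features. Median ratio scaling divides every library by the median over features of its ratio to a common average. This brought the median of all features to -0.00. It gave 212 raised and 40 lowered members of 490, beside 1074 and 1135 of 5938 features, with a members' median of 0.69. Under that scaling the shares were apart: 43.3% of members rose beside 18.1% of all features, and 8.2% fell beside 19.1%. Leaving out WT replicate 1 or 2 left 196 or 193 raised members, with 8 or 10 lowered, and no library removed brought the raised count below 193.

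**Figure D1:**
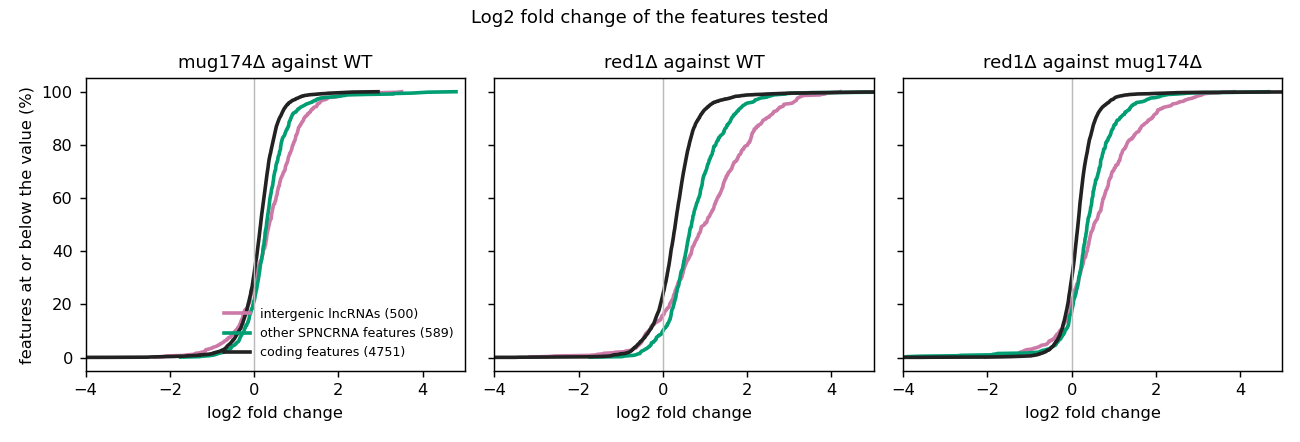
Cumulative share (percent) of the features tested at or below each log2 fold change, for intergenic lncRNAs, other SPNCRNA features and coding features, in mug174Δ against WT, red1Δ against WT and red1Δ against mug174Δ. The curve of the intergenic lncRNAs lies to the right of the coding curve over most of its range in each panel, with medians of 0.36, 0.99 and 0.53 against 0.16, 0.29 and 0.15; 1, 9 and 6 features fall outside the axis, none of them members.

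The largest rises in red1Δ were of RNAs with a WT level between 0 and 16.1 RPKM. SPNCRNA.1114, which diverges from the coding gene SPCC320.08 at a gap of 220 bases, stood at 49.1 and 51.3 RPKM in red1Δ against 2.99 and 1.66 RPKM in WT (log2 fold change 4.21 ± 0.30 SE, adjusted p = 0.00068). All of SPNCRNA.1114 lies inside an annotated mRNA on the other strand, so its reads cannot be assigned to it alone. SPNCRNA.405, upstream of xpa1 on its strand and shown above with 3 hexamers, stood at 25.4 and 32.6 RPKM in red1Δ against 1.61 and 1.42 RPKM in WT (3.86 ± 0.28, adjusted p = 0.00072). For both, the lower red1Δ library was far above the higher WT library. SPNCRNA.1197, which converges on SPCC61.05, reached the highest level of the 10 members named for their rise, 141 and 194 RPKM in red1Δ against 8.93 and 16.1 RPKM in WT (3.73 ± 0.29, adjusted p = 0.00086). SPNCRNA.403, upstream of the splicing factor gene prp1, stood at 18.1 and 26.3 RPKM in red1Δ against 1.92 and 1.71 RPKM in WT (3.27 ± 0.24, adjusted p = 0.00073), and SPNCRNA.513, upstream of mug137, at 24.7 and 27.4 RPKM against 2.31 and 1.91 RPKM (3.35 ± 0.16, adjusted p = 0.00019). The red1Δ and WT libraries of these did not overlap, which the rule for naming them required.

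Several of the strongly raised members had so few WT reads that their fold is loosely fixed. SPNCRNA.942, divergent from the spindle pole body gene ppc89 and shown whole above, had 60 and 77 reads in red1Δ against 1 and 2 in WT, a ratio of 47.1 per library total with a 95% exact counting interval of 15.8 to 231.0 and a fitted log2 fold change of 4.17 ± 0.55 (adjusted p = 0.0032). SPNCRNA.177 had 58 and 56 reads in red1Δ against 0 and 2 in WT, a ratio of 58.8 with an interval of 15.9 to 490.9. SPNCRNA.286, an RNA of 87 bases near a long terminal repeat, had 5 and 20 reads in red1Δ against 0 in both WT libraries, which makes it at least 4.29-fold higher at a floor of 3 reads per library. It was not tested without either red1Δ library, since it then no longer reached 1 RPKM in 2 libraries, nor at a filter of 5 RPKM. These intervals cover counting error only. SPNCRNA.201, downstream of the hexokinase gene hxk2, stood at 20.1 and 20.9 RPKM in red1Δ against 3.09 and 0.752 RPKM in WT (3.31 ± 0.47, adjusted p = 0.0037), and the small nucleolar RNA SPNCRNA.530 at 41.2 and 46.5 RPKM against 1.43 and 4.14 RPKM (3.89 ± 0.44, adjusted p = 0.0023). The unequal WT libraries moved both: SPNCRNA.201 was at 4.07 without WT replicate 1 and 2.55 without WT replicate 2, and SPNCRNA.530 at 3.25 and 4.52.

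**Figure D2:**
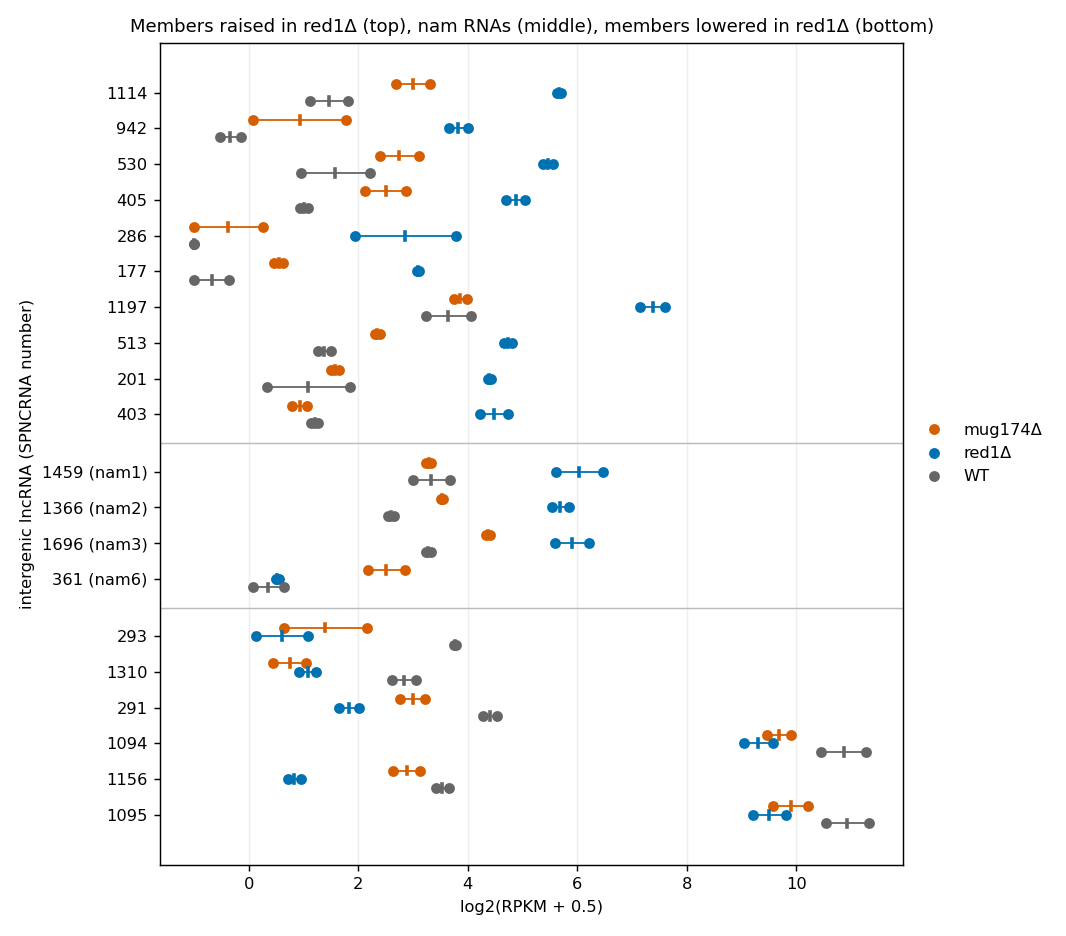
Level of named intergenic lncRNAs in each library, as log2(RPKM + 0.5), for the 10 members with the largest rise in red1Δ, the 4 nam RNAs and the 6 members with the largest fall in red1Δ. Dots are libraries, lines join the 2 libraries of a strain and short bars are means. In the upper 10 members both red1Δ dots lie above both WT dots, as their selection required.

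The nam RNAs are long non-coding transcripts named for their link with Mmi1, and 4 of them are members. All but nam6 rose in red1Δ. The most hexamers stand in nam2 (SPNCRNA.1366), 11 in 2320 bases, and it had 45.6 and 57.4 RPKM in red1Δ and 11.0 and 11.1 RPKM in mug174Δ, against 5.32 and 5.81 RPKM in WT. It rose in red1Δ (3.09 ± 0.15, adjusted p = 0.00018) and, by less, in mug174Δ (0.93 ± 0.15, adjusted p = 0.012). RefSeq describes nam1 (SPNCRNA.1459, 9 hexamers) as a cis-acting RNA that represses byr2, a kinase gene of the mating response that lies 258 bases downstream of it on the same strand. For nam1 the values were 48.2 and 88.2 RPKM in red1Δ and 8.92 and 9.55 RPKM in mug174Δ, against 7.45 and 12.2 RPKM in WT. It rose in red1Δ (2.71 ± 0.33, adjusted p = 0.0027) and its mug174Δ libraries lay between the WT libraries (-0.05 ± 0.33, adjusted p = 0.93). The byr2 mRNA itself rose in red1Δ, to 33.7 and 46.9 RPKM against 24.4 and 25.3 RPKM in WT (0.67, adjusted p = 0.016).

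The same order of strains held for nam3 (SPNCRNA.1696, 4 hexamers), at 47.8 and 74.1 RPKM in red1Δ and 19.6 and 20.8 RPKM in mug174Δ, against 8.91 and 9.54 RPKM in WT. Its rise was 2.63 ± 0.21 in red1Δ (adjusted p = 0.00086) and 1.09 ± 0.21 in mug174Δ (adjusted p = 0.018). By contrast, nam6 (SPNCRNA.361, 9 hexamers) lies in centromeric repeats on chromosome II and was raised in mug174Δ only among these strains: 3.99 and 6.71 RPKM in mug174Δ and 0.903 and 0.957 RPKM in red1Δ, against 0.552 and 1.06 RPKM in WT. The mug174Δ change was 2.15 ± 0.34 (adjusted p = 0.012), the red1Δ change was 0.16 ± 0.34 (adjusted p = 0.71), and the direct difference between red1Δ and mug174Δ was -1.99 ± 0.34 (adjusted p = 0.017, lost without either mug174Δ library). All of the nam6 sequence is repeated elsewhere in 50-base words, so reads of its copies may be shared or lost in mapping. The 3 red1Δ calls stood without any 1 library, and the 3 mug174Δ calls were each lost without either mug174Δ or either WT library. The nam3 call in mug174Δ was also lost without the filter, and that of nam6 at a filter of 5 RPKM.

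Members that RefSeq gives a molecular function moved in different ways. The RNA of RNase MRP, an enzyme that processes ribosomal RNA precursors, is SPNCRNA.82 (mrp1), and it stood at 85.7 and 109 RPKM in red1Δ and 54.5 and 46.4 RPKM in mug174Δ, against 16.8 and 20.1 RPKM in WT. It rose in red1Δ (2.36 ± 0.16, adjusted p = 0.00063) and in mug174Δ (1.43 ± 0.16, adjusted p = 0.0069), with no overlap between strains, and its mug174Δ call was lost without either mug174Δ library or WT replicate 1. The 7SL RNA of the signal recognition particle (srp7, SPNCRNA.98) stood at 3.85 and 3.86 RPKM in red1Δ and 3.79 and 2.53 RPKM in mug174Δ, against 1.29 and 3.39 RPKM in WT, and neither change passed the test (adjusted p = 0.17 and 0.42). Both are listed at levels that need not cover the mature RNA, and the method that selected RNA for sequencing is described differently in the labels and in the paper.

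Small nucleolar RNAs gave a case of opposite directions in the 2 deletions. SPNCRNA.1709 guides modification of the U2 small nuclear RNA, a core part of the spliceosome, and it stood at 55.8 and 78.3 RPKM in red1Δ and 10.4 and 6.48 RPKM in mug174Δ, against 26.8 and 19.9 RPKM in WT. It rose in red1Δ (1.50 ± 0.28, adjusted p = 0.0076), fell in mug174Δ (-1.44 ± 0.28, adjusted p = 0.019) and was higher in red1Δ than in mug174Δ (2.93 ± 0.28, adjusted p = 0.0036). The libraries of the 3 strains did not overlap, as the rule for naming it required for mug174Δ and WT. Its mug174Δ values rest on 20 and 14 reads, against 57 and 40 in WT. That call was lost without either mug174Δ or either WT library, without the filter and with weights from the whole reads, while its rise in red1Δ stood without any 1 library. SPNCRNA.445, named snoR61 and given by RefSeq as the small nucleolar RNA snR61, rose in red1Δ, at 66.3 and 53.3 RPKM against 32.2 and 35.5 RPKM in WT (0.81 ± 0.13, adjusted p = 0.0051), a call lost under median ratio scaling. For mug174Δ it was at 27.4 and 25.9 RPKM (-0.34 ± 0.13, adjusted p = 0.10). Of 2 primary transcripts of small nucleolar RNAs, chosen after their values were seen, SPNCRNA.1483 rose in red1Δ by 1.18 ± 0.13 and SPNCRNA.1650 by 1.33 ± 0.21 (adjusted p = 0.0022 and 0.0049), and neither passed the test in mug174Δ (0.37 ± 0.13 and 0.47 ± 0.21, adjusted p = 0.085 and 0.15).

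A few members are described by their relation to a named gene or RNA, which need not be the nearest one. Of these, SPNCRNA.111, SPNCRNA.1326 and SPNCRNA.1343 below were chosen after their values were seen. SPNCRNA.1365, a cryptic unstable transcript described as antisense to cti6, stood at 13.3 and 14.1 RPKM in red1Δ and 3.14 and 2.5 RPKM in mug174Δ, against 1.01 and 1.19 RPKM in WT (red1Δ 3.15 ± 0.19, adjusted p = 0.00045). Its smaller mug174Δ rise (1.05 ± 0.19, adjusted p = 0.017) was lost without either mug174Δ or either WT library. SPNCRNA.111 is described as a cis-acting repressor of ste11, the transcription factor gene of sexual development. Its nearest coding feature is cyc3, at 357 bases, while ste11 lies 3479 bases away. SPNCRNA.111 stood at 10.1 and 15.8 RPKM in red1Δ and 15.6 and 15.9 RPKM in mug174Δ, against 10.2 and 9.01 RPKM in WT. Neither change passed the test (adjusted p = 0.18 and 0.064). SPNCRNA.1326, listed as a regulatory RNA upstream of fbp1, was at or under 2.60 RPKM in every library. Its WT libraries, at 0.470 and 2.23 RPKM, overlapped those of red1Δ and mug174Δ. SPNCRNA.1343, described as a bidirectional partner of nc-tgp1, the RNA upstream of a phosphate-responsive transporter gene, stood at 13.5 and 15.1 RPKM in mug174Δ and 19.9 and 17.3 RPKM in red1Δ, against 22.8 and 21.8 RPKM in WT. It fell in mug174Δ (-0.63 ± 0.12, adjusted p = 0.020), a call lost without either mug174Δ or either WT library and without the filter, and did not pass the test in red1Δ (-0.26 ± 0.12, adjusted p = 0.12).

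Named members of the prl series, RNAs that carry poly(A) and lack a long reading frame, rose in red1Δ in 24 of 32 cases and fell in 2. The share is 75.0%, beside 48.4% of all features. Among them prl40 (SPNCRNA.40), described as specific to quiescence, stood at 17.5 and 28.2 RPKM in red1Δ against 3.72 and 1.81 RPKM in WT (2.87 ± 0.39, adjusted p = 0.0034), and prl36 at 24.1 and 24.3 RPKM against 3.31 and 4.43 RPKM (2.51 ± 0.24, adjusted p = 0.0015). For prl39 the values were 25.8 and 33.2 RPKM in red1Δ against 7.39 and 3.78 RPKM in WT (2.36 ± 0.40, adjusted p = 0.0059). In these 3 both red1Δ libraries were above both WT libraries. Of prl39, 61.9% lies inside an annotated mRNA on the other strand, and of prl28 below, 48.0% lies inside one on its own strand. The reads of prl39 and prl28 therefore cannot be assigned to them alone. The red1Δ libraries themselves were far apart for prl12, at 8.13 and 23.2 RPKM against 1.47 and 1.90 RPKM in WT (2.72 ± 0.46, adjusted p = 0.0060), which was at 3.45 without red1Δ replicate 1 and 1.99 without red1Δ replicate 2. They were farther apart for prl57, at 3.06 and 15.9 RPKM against 1.36 and 3.41 RPKM, whose libraries overlapped and whose change did not pass the test (1.50 ± 0.73, adjusted p = 0.13). The 2 that fell were prl28, at 17.8 and 26.2 RPKM against 35.8 and 34.9 RPKM (-0.70 ± 0.18, adjusted p = 0.020), and prl37, at 0.434 and 1.74 RPKM against 4.11 and 3.61 RPKM (-1.59 ± 0.47, adjusted p = 0.030). Both falls were lost without either WT library and without the filter, and prl37, also lost at a filter of 5 RPKM, was at -0.96 without red1Δ replicate 1 and -2.22 without red1Δ replicate 2. Between 3 and 8 of the 24 rises were lost when a red1Δ or WT library was left out.

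In mug174Δ, 8 of the 32 prl members rose and 1, prl37, fell, beside 19.8% and 5.53% of all features. Among the 8 was prl58 (SPNCRNA.58), at 74.7 and 87.1 RPKM in mug174Δ and 73.4 and 84.9 RPKM in red1Δ, against 23.0 and 34.7 RPKM in WT (mug174Δ 1.50 ± 0.20, adjusted p = 0.0094, and red1Δ 1.47 ± 0.20, adjusted p = 0.0036). Next to the meiotic gene meu13, prl50 stood at 7.33 and 6.85 RPKM in mug174Δ and 10.6 and 8.43 RPKM in red1Δ, against 2.43 and 1.98 RPKM in WT (1.49 ± 0.19, adjusted p = 0.0086, and 1.89 ± 0.19, adjusted p = 0.0017). Of the 32, 1 (prl51) was called higher in mug174Δ than in red1Δ, at 11.1 and 11.7 RPKM in red1Δ against 19.5 and 15.6 RPKM in mug174Δ (-0.60 ± 0.15, adjusted p = 0.043), with WT at 8.33 and 9.20 RPKM, and that call was lost without any 1 of the 6 libraries. Of the 8 rises, all were lost without either mug174Δ library or WT replicate 1, and 7 without WT replicate 2.

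The meu genes were named for rising in meiosis, and meu3 (SPNCRNA.07) stood at 18.0 and 35.7 RPKM in red1Δ and 17.8 and 16.5 RPKM in mug174Δ, against 7.05 and 6.74 RPKM in WT, although 62.2% of its 50-base words are repeated elsewhere. It was raised in red1Δ (1.81 ± 0.30, adjusted p = 0.0056) and in mug174Δ (1.25 ± 0.30, adjusted p = 0.032). For meu19 (SPNCRNA.29), which also holds repeated words, the values were 19.4 and 46.3 RPKM in red1Δ and 27.6 and 28.9 RPKM in mug174Δ, against 12.8 and 11.3 RPKM in WT. Its red1Δ change of 1.29 ± 0.37 (adjusted p = 0.028) was at 1.90 without red1Δ replicate 1 and 0.67 without red1Δ replicate 2, and the call was lost without either mug174Δ or either WT library, without the filter and under median ratio scaling. In mug174Δ it did not pass the test (1.20 ± 0.37, adjusted p = 0.061). For meu20 (SPNCRNA.587), with 12.7 and 13.6 RPKM in red1Δ and 10.7 and 13.7 RPKM in mug174Δ against 9.01 and 12.5 RPKM in WT, neither change passed the test (adjusted p = 0.24 and 0.52). SPNCRNA.388, beside the mating-type gene mat1-Mc, stood at 58.0 and 57.6 RPKM in red1Δ and 41.2 and 31.4 RPKM in mug174Δ, against 12.2 and 14.5 RPKM in WT, with no overlap (2.08 ± 0.16 in red1Δ, adjusted p = 0.00077, and 1.40 ± 0.16 in mug174Δ, adjusted p = 0.0069). The transcript omt3 (SPNCRNA.130), specific to meiosis, differed between the red1Δ libraries, at 4.5 and 20.4 RPKM against 3.93 and 3.51 RPKM in WT (1.28 ± 0.64, adjusted p = 0.13). The mug174Δ call of meu3 was lost without either mug174Δ or either WT library, without the filter and with weights from whole reads, and that of SPNCRNA.388 without mug174Δ replicate 1 or WT replicate 1. Apart from these, 6 of the 11 tested mating and meiosis markers given above were also called higher in red1Δ, beside 48.4% of all features. The part of these markers in the results was not tested.

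Of the 6 members named for a fall in red1Δ, 4 were also called lower in mug174Δ, beside 5.53% of all features. SPNCRNA.293, SPNCRNA.1310 and SPNCRNA.291 lie near the left end of chromosome II, between bases 103165 and 121643. SPNCRNA.291, divergent from SPBC359.01, stood at 3.56 and 2.63 RPKM in red1Δ and 8.85 and 6.30 RPKM in mug174Δ, against 22.7 and 18.8 RPKM in WT (red1Δ -2.57 ± 0.23, adjusted p = 0.0012, and mug174Δ -1.41 ± 0.23, adjusted p = 0.013). SPNCRNA.293, upstream of the transporter gene abc3, was at 0.596 and 1.63 RPKM in red1Δ and 3.96 and 1.06 RPKM in mug174Δ, against 13.3 and 12.9 RPKM in WT (-3.15 ± 0.55, adjusted p = 0.0062, and -2.36 ± 0.55, adjusted p = 0.029). SPNCRNA.1310, which converges on alr2, was at 1.38 and 1.85 RPKM in red1Δ and 1.57 and 0.857 RPKM in mug174Δ, against 7.85 and 5.64 RPKM in WT (-1.77 ± 0.31, adjusted p = 0.0062, and -2.10 ± 0.31, adjusted p = 0.011). In all 3 both WT libraries were above all 4 libraries of the deletions, as naming them for a fall in both deletions required. The deletions share their WT libraries, so the pair of comparisons is not independent. The 3 red1Δ calls stood without any 1 library, and the 3 mug174Δ calls were each lost without either mug174Δ or either WT library. Over all tested members within 150 kb of an end of chromosome I or II, 7 of 35 fell in red1Δ and 19 rose. This stands beside 24 and 278 of 500 members, and 7.33% and 48.4% of all features tested.

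The most abundant intergenic members also fell in red1Δ. SPNCRNA.1095 and SPNCRNA.1094 are adjacent on chromosome III, start at bases 23919 and 23658, and consist wholly of repeated 50-base words. SPNCRNA.1095 stood at 592.3 and 894.3 RPKM in red1Δ and 764.7 and 1187 RPKM in mug174Δ, against 1482 and 2581 RPKM in WT (red1Δ -1.43 ± 0.35, adjusted p = 0.018, and mug174Δ -1.04 ± 0.35, adjusted p = 0.077). SPNCRNA.1094 stood at 525.7 and 759.3 RPKM in red1Δ and 702.8 and 957.1 RPKM in mug174Δ, against 1397 and 2476 RPKM in WT (-1.56 ± 0.32, adjusted p = 0.010, and -1.18 ± 0.32, adjusted p = 0.045). Both WT libraries lay above the other 4, as naming for a fall required in red1Δ and, for SPNCRNA.1094, in mug174Δ. The WT libraries were themselves far apart. Together these 2 members held 8.96% and 9.95% of all member reads in red1Δ and 12.8% and 18.3% in mug174Δ, against 25.0% and 37.6% in WT, so they carry much of the share of reads given above. The red1Δ call of SPNCRNA.1095 was lost without WT replicate 2, at -1.02, and without the filter, and the mug174Δ call of SPNCRNA.1094 without either mug174Δ or either WT library, without the filter and without a trend in the prior. SPNCRNA.1156, a possible alternative UTR that overlaps an mRNA on its own strand, stood at 1.14 and 1.43 RPKM in red1Δ and 5.72 and 8.21 RPKM in mug174Δ, against 10.1 and 12.1 RPKM in WT, and fell in red1Δ (-2.70 ± 0.23, adjusted p = 0.0011) while its mug174Δ change did not pass the test (-0.65 ± 0.23, adjusted p = 0.084). It lies 1750 bases upstream of oca2, whose mRNA rose in red1Δ, at 41.3 and 52.9 RPKM against 25.3 and 22.8 RPKM in WT (0.95 ± 0.14, adjusted p = 0.0041).

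Other members with a high level in WT moved little. SPNCRNA.92, near the proton pump gene pma1, stood at 191 and 213 RPKM in mug174Δ and 196 and 154 RPKM in red1Δ, against 162 and 156 RPKM in WT, and neither change passed the test (0.34 ± 0.13 and 0.13 ± 0.13). SPNCRNA.114 likewise did not pass (0.38 ± 0.15 and 0.39 ± 0.15). SPNCRNA.112 was lower in red1Δ, at 118 and 98.9 RPKM against 151 and 138 RPKM in WT (-0.41 ± 0.11, adjusted p = 0.024), and SPNCRNA.120 was higher, at 134 and 188 RPKM against 115 and 106 RPKM (0.52 ± 0.18, adjusted p = 0.049). Both calls were lost without the filter and without red1Δ replicate 2 or either WT library, and SPNCRNA.120 was also lost without either mug174Δ library and under 5 other settings. SPNCRNA.92 and SPNCRNA.114 lie wholly inside an annotated mRNA on the other strand and SPNCRNA.112 inside one on its own strand. Their reads cannot be assigned to them alone. In all, 6 members averaged at least 100 RPKM in WT and 99 at least 10 RPKM.

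Loss of Mug174 was accompanied by fewer changes. In mug174Δ against WT, 93 of 500 members rose and 16 fell, which is 18.6% beside 19.8% of all features tested, and 3.2% beside 5.53%. In this fit the share of members called was thus near the background in both directions. The median log2 fold change was 0.36 over members and 0.18 over all features, with 0.29 over the other SPNCRNA features and 0.16 over coding features. The members' median was also 0.36 with the 13 members that had 0 reads in 1 of these strains set at their bound. With no filter on low values the medians lay close together, at 0.14 over 747 members and 0.13 over all 7001 features. Under median ratio scaling, which brought the median of all features to 0.01, 67 of 490 members rose and 26 fell, beside 582 and 602 of 5938 features, and the members' median was 0.21. These calls rest on every library of the pair. Without any 1 mug174Δ or WT library nearly all rises and falls lost their call, among members and among all features alike. The members' median was then 0.33 and 0.38 without mug174Δ replicate 1 and 2, and 0.40 and 0.34 without WT replicate 1 and 2. Over all features these medians were 0.18, 0.18, 0.19 and 0.16. More members were called without either red1Δ library, which only lends its spread.

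Among the largest rises in mug174Δ was that of SPNCRNA.1527, upstream of the glucan-modifying enzyme gene gas2 and described as a possible alternative UTR. It stood at 18.1 and 14.8 RPKM in mug174Δ and 4.24 and 10.3 RPKM in red1Δ, against 0.827 and 1.41 RPKM in WT (mug174Δ 3.41 ± 0.41, adjusted p = 0.0079, and red1Δ 2.17 ± 0.41, adjusted p = 0.0080), with the red1Δ change at 2.76 without red1Δ replicate 1 and 1.57 without red1Δ replicate 2. SPNCRNA.1339, divergent from the iron transporter gene fet4, stood at 8.78 and 7.0 RPKM in mug174Δ and 7.27 and 11.0 RPKM in red1Δ, against 0.745 and 0.437 RPKM in WT (2.95 ± 0.28, adjusted p = 0.0048, and 3.13 ± 0.28, adjusted p = 0.0012). Of its bases, 53.6% lie inside an annotated mRNA on the other strand, so its reads cannot be assigned to it alone. For SPNCRNA.1527 and SPNCRNA.1339, each library of either deletion lay above both WT libraries, which the rule for naming them required of mug174Δ. The mRNA of fet4 rose as well, to 18.3 and 15.4 RPKM in mug174Δ and 23.7 and 29.6 RPKM in red1Δ, against 11.0 and 10.2 RPKM in WT (0.65 ± 0.15, adjusted p = 0.032, and 1.29 ± 0.15, adjusted p = 0.0025). SPNCRNA.464, upstream of ago1, the Argonaute gene of RNA interference, stood at 10.4 and 6.16 RPKM in mug174Δ and 18.9 and 16.6 RPKM in red1Δ, against 0.895 and 2.36 RPKM in WT (2.09 ± 0.39, adjusted p = 0.018, and 3.19 ± 0.39, adjusted p = 0.0027). SPNCRNA.473 and SPNCRNA.263 rose in both deletions too, by 1.91 ± 0.43 and 1.72 ± 0.49 in mug174Δ (adjusted p = 0.028 and 0.049), and the calls of SPNCRNA.263 in both deletions were lost without the filter, under median ratio scaling, without a trend, with the replicate block and with voom weights.

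SPNCRNA.322 and SPNCRNA.1190 had close replicates. SPNCRNA.322, a transcript of 2179 bases upstream of naa38, stood at 32.2 and 32.1 RPKM in mug174Δ and 11.0 and 15.6 RPKM in red1Δ, against 9.88 and 10.4 RPKM in WT. It rose in mug174Δ (1.62 ± 0.17, adjusted p = 0.0064), did not pass the test in red1Δ (0.36 ± 0.17, adjusted p = 0.13) and was lower in red1Δ than in mug174Δ (-1.26 ± 0.17, adjusted p = 0.011, lost without either mug174Δ library). SPNCRNA.1190, upstream of the cell wall glucan synthase gene ags1, stood at 10.9 and 9.09 RPKM in mug174Δ and 5.31 and 4.79 RPKM in red1Δ, against 2.74 and 3.20 RPKM in WT (mug174Δ 1.60 ± 0.18, adjusted p = 0.0071). The shortest RNAs rest on few reads. SPNCRNA.460, of 86 bases, had 5 and 12 reads in mug174Δ against 0 in both WT libraries, at least 2.81-fold higher at a floor of 3 reads per library, and SPNCRNA.307, described as specific to late meiosis, had 12 and 14 reads against 0 and 2, a ratio of 13.2 with a counting interval of 3.30 to 114.5.

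Of the 10 members named for their rise in mug174Δ, all lost the call without mug174Δ replicate 1, 9 without mug174Δ replicate 2, 9 without WT replicate 1 and 7 without WT replicate 2, and 5 without the filter. SPNCRNA.307 was at 2.18 without WT replicate 1 and 3.70 without WT replicate 2. In red1Δ, which is set against the same WT libraries, 8 of the 10 were called higher, beside 48.4% of all features, and 5 of these calls were lost without WT replicate 1. Among the 6 members named for a fall in mug174Δ were the 3 on the left arm of chromosome II, SPNCRNA.1094 and SPNCRNA.1709, all given above, and SPNCRNA.873. The last stood at 4.06 and 6.27 RPKM in mug174Δ and 7.86 and 8.10 RPKM in red1Δ, against 12.6 and 11.2 RPKM in WT (-1.16 ± 0.21, adjusted p = 0.017). The rule for naming these members required no overlap between mug174Δ and WT. Of SPNCRNA.873, 87.0% lies inside an annotated mRNA on the other strand. Each of the 6 lost its call without any 1 of the 4 libraries compared, and SPNCRNA.293 was at -3.12 without mug174Δ replicate 1 and -1.60 without mug174Δ replicate 2.

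**Figure D3:**
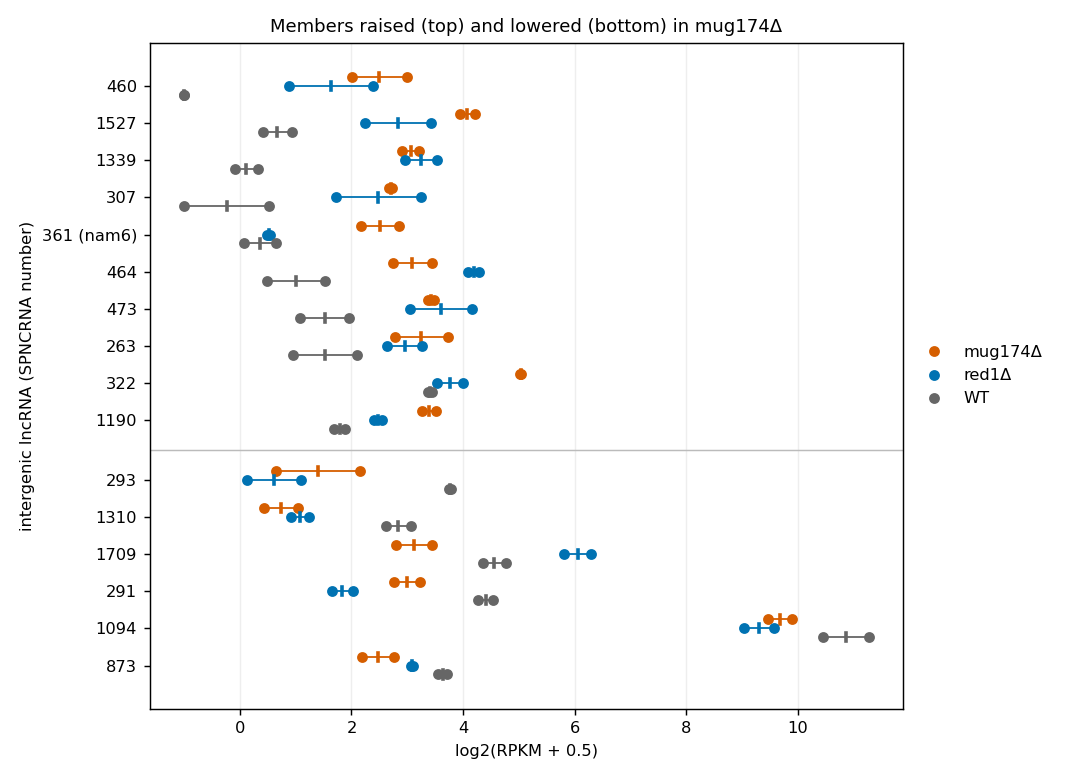
Level of named intergenic lncRNAs in each library, as log2(RPKM + 0.5), for the 10 members with the largest rise and the 6 with the largest fall in mug174Δ against WT. Dots are libraries, lines join the 2 libraries of a strain and short bars are means; SPNCRNA.1709 lies below WT in mug174Δ and above WT in red1Δ.

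**Figure D4:**
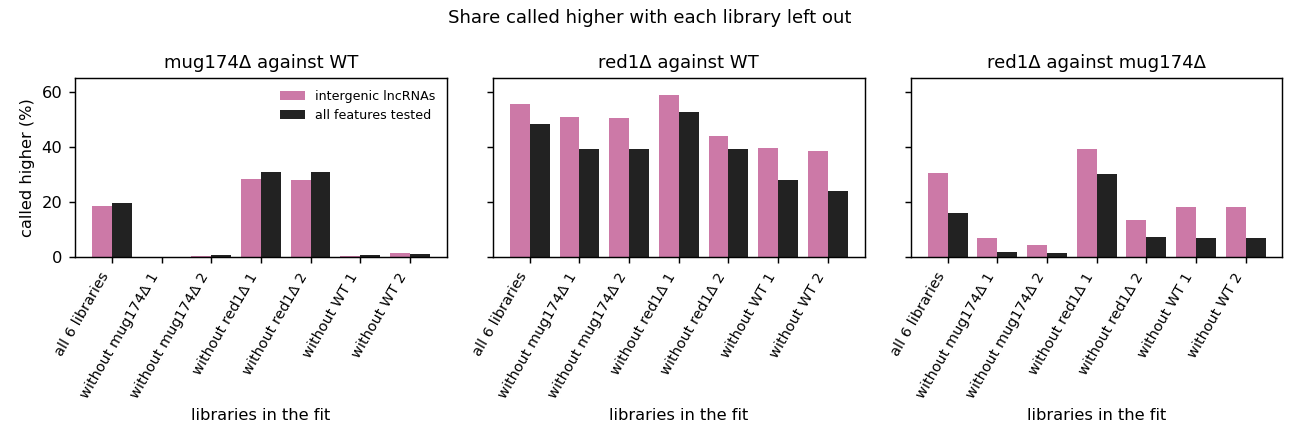
Share (percent) of tested features called higher at an adjusted p under 0.05, for intergenic lncRNAs and for all features, with all 6 libraries and with each left out. In mug174Δ against WT the bars of the members and of all features nearly vanish without any 1 mug174Δ or WT library, while in red1Δ against WT both stay clear.

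The direct comparison of the deletions set red1Δ above mug174Δ for many members. In red1Δ against mug174Δ, 154 of 500 members were higher and 12 lower, which is 30.8% beside 16.1% of all features tested, and 2.4% beside 3.28%. The median log2 fold change was 0.53 over members and 0.18 over all features, and with no filter on low values 0.25 and 0.15. Under median ratio scaling 115 of 490 members were higher and 18 lower, beside 439 and 336 of 5938 features, and the members' median was 0.37. The higher count fell to 34 without mug174Δ replicate 1, 22 without mug174Δ replicate 2, 63 without red1Δ replicate 2, 90 without WT replicate 1 and 91 without WT replicate 2, and the lower count to 1 and 0 without mug174Δ replicate 1 and 2. Among the members named for this difference, SPNCRNA.403 stood at 18.1 and 26.3 RPKM in red1Δ against 1.59 and 1.24 RPKM in mug174Δ (3.55 ± 0.24, adjusted p = 0.0010) and SPNCRNA.1197 at 141 and 194 RPKM against 12.9 and 15.3 RPKM (3.51 ± 0.29, adjusted p = 0.0024). In both, mug174Δ did not pass the test against WT (-0.28 ± 0.24 and 0.22 ± 0.29), and the difference between the deletions stood without any 1 library.

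SPNCRNA.280, near the right end of chromosome I, had 17 and 40 reads in red1Δ against 0 in both mug174Δ libraries, at least 9.63-fold higher at the same floor, and against 0 and 3 reads in WT. SPNCRNA.286 had 25 reads in red1Δ against 1 in mug174Δ. Neither was tested without either red1Δ library, the SPNCRNA.280 difference was also lost without either mug174Δ library, and the SPNCRNA.286 difference without any 1 library. On the lower side, SPNCRNA.1156 was at 1.14 and 1.43 RPKM in red1Δ against 5.72 and 8.21 RPKM in mug174Δ (-2.05 ± 0.23, adjusted p = 0.0055). SPNCRNA.1463, upstream of sce3, was at 1.63 and 2.19 RPKM in red1Δ against 6.10 and 5.46 RPKM in mug174Δ (-1.39 ± 0.21, adjusted p = 0.013), with WT between them at 2.56 and 2.55 RPKM. SPNCRNA.406 was at 3.10 and 4.17 RPKM in red1Δ against 10.3 and 9.30 RPKM in mug174Δ (-1.33 ± 0.19, adjusted p = 0.012), with WT between them at 5.19 and 5.92 RPKM. The libraries of the deletions did not overlap in any of these, as the rule for naming them required. Leaving out mug174Δ replicate 1 ended the call of SPNCRNA.1463 and SPNCRNA.406, and leaving out mug174Δ replicate 2 ended all 3.

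The change in red1Δ differed in size between classes of members, which are described here with no test. The shares that rose are to be read beside 48.4% of all features tested, and the medians beside 0.35. Members between 100 and 500 bases from a coding feature rose in 63.5% of 274 cases with a median log2 fold change of 1.21, those closer in 44.4% of 63 cases with a median of 0.68, and those at 500 bases or more in 46.6% of 163 cases with a median of 0.74. Short members moved more: 67.1% of 158 members under 500 bases rose, with a median of 1.50, against 38.0% of 150 members of 1 kb or more, with a median of 0.47. Members that overlap no annotated mRNA had a median of 1.21 over 313, and those that overlap an mRNA on the same strand or on the other strand only had 0.65 over 86 and 0.67 over 101. By position, the median was 1.15 for 171 members upstream of a gene on its strand, 1.11 for 196 divergent, 0.84 for 53 downstream on the same strand and 0.68 for 80 convergent members. By chromosome it was 1.16 for 204 members on I, 0.68 for 185 on II and 1.21 for 111 on III. By mean level over the 6 libraries it was 0.90 for 32 members under 1 RPKM, 1.11 for 196 members between 1 and 5 RPKM, 1.03 for 213 between 5 and 20 RPKM and 0.67 for 59 at 20 RPKM or more, of which 38 rose.

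By number of UNAAAC hexamers, also with no test, 52.2% of 136 members with none rose in red1Δ, 58.4% of 226 with 1 or 2, 54.7% of 128 with 3 to 7, and 5 of 10 with 8 or more. These shares were near the 48.4% of all features tested. The medians were 1.08, 1.06, 0.78 and 0.77. These classes count hexamers per member and not per kb, so longer members can hold more. Longer members also rose less, with medians of 1.50 under 500 bases and 0.47 at 1 kb or more. Hexamer number and length were not separated, so these classes cannot say how the hexamer relates to the rise. Examples at both ends of hexamer number are SPNCRNA.1511, with none, at 21.3 and 20.2 RPKM in red1Δ against 1.80 and 1.74 RPKM in WT (3.22 ± 0.19, adjusted p = 0.00037), and nam2 with 11. Of SPNCRNA.1511, 44.8% lies inside an annotated mRNA on the other strand, so its reads cannot be assigned to it alone. SPNCRNA.1236, with 5 hexamers, stood at 33.0 and 39.5 RPKM in red1Δ against 8.88 and 8.25 RPKM in WT (2.01 ± 0.15, adjusted p = 0.00080), and SPNCRNA.279, with 8, at 8.41 and 15.7 RPKM against 1.60 and 2.16 RPKM (2.35 ± 0.34, adjusted p = 0.0040). In mug174Δ the 4 classes had medians of 0.27, 0.41, 0.35 and 0.24. Of 31 tested members that RefSeq calls poly(A)-bearing, 71.0% rose in red1Δ, beside 48.4% of all features, with a median of 1.29.

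**Figure D5:**
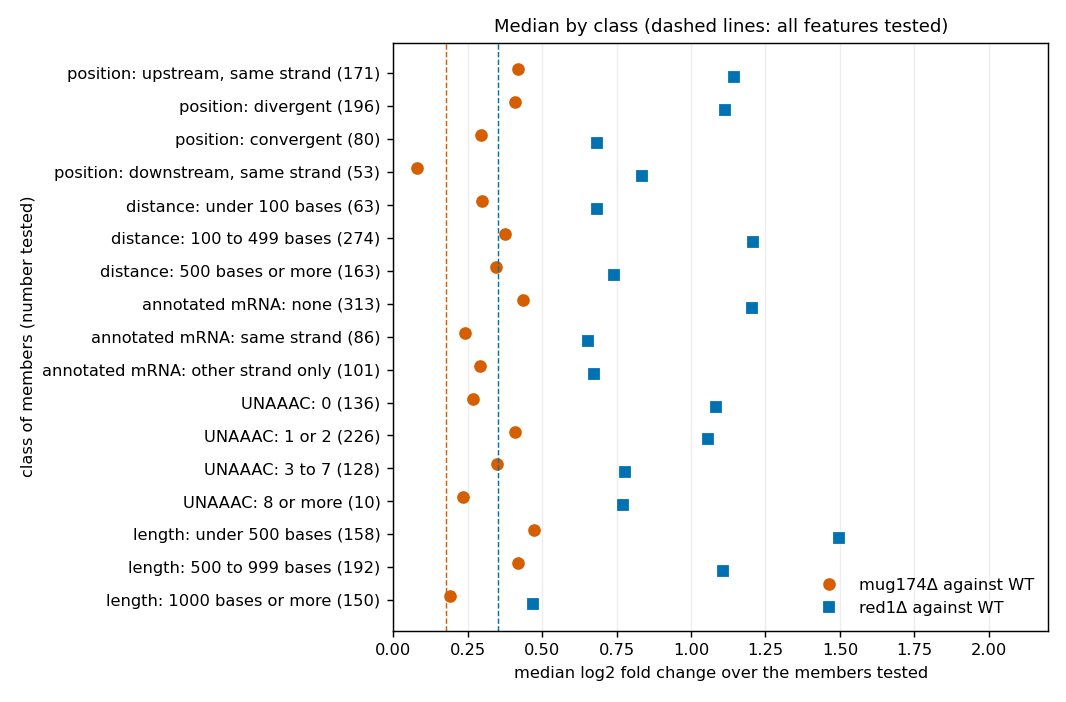
Median log2 fold change over the tested members of each class, in mug174Δ against WT (circles) and red1Δ against WT (squares), with the number tested in brackets and dashed lines at the median of all features tested. In red1Δ the medians run between 0.47 for members of 1 kb or more and 1.50 for members under 500 bases.

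Members that RefSeq describes as centromeric or centromere-proximal were mostly near or under the detection limit. RefSeq gives 20 such members, of which 8 were tested, and their median was 0.65 in mug174Δ and -0.23 in red1Δ. In mug174Δ 2 rose, nam6 and SPNCRNA.480, beside 19.8% of all features, and in red1Δ 2 rose, SPNCRNA.480 and SPNCRNA.1172, beside 48.4%. SPNCRNA.480 and SPNCRNA.1172 hold no repeated words, while nam6 consists wholly of them. Both red1Δ rises were thus outside repeated sequence. All members of this paragraph but nam6 were chosen for naming after their values were seen. SPNCRNA.480, on chromosome III near meu27, stood at 1.91 and 2.71 RPKM in mug174Δ and 3.53 and 5.72 RPKM in red1Δ, against 0.115 and 0.728 RPKM in WT (mug174Δ 1.68 ± 0.42, adjusted p = 0.036, and red1Δ 2.53 ± 0.42, adjusted p = 0.0056). SPNCRNA.482 and SPNCRNA.485, in the repeats of the same centromere, had adjusted p values between 0.17 and 0.58 against WT at levels of 1.23 to 3.33 RPKM, with both mug174Δ libraries below both WT libraries and the red1Δ libraries overlapping WT. SPNCRNA.366, on chromosome II, was at 0.346 and 1.54 RPKM in mug174Δ against 2.40 and 4.96 RPKM in WT, and the change did not pass the test (-1.60 ± 0.50, adjusted p = 0.063). Both mug174Δ rises were lost without either mug174Δ or either WT library, and the rise of SPNCRNA.1172 in red1Δ without red1Δ replicate 2 or either WT library. The set of members leaves out 14 SPNCRNA features by name, so these results cannot speak for all centromeric transcripts. The paper reports its most significant rise in mug174Δ for a centromeric transcript that is not among the members named here.

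The gene next to a member did not move with it closely. Over 471 pairs of a tested member and its tested nearest coding feature, Pearson's r of the log2 fold changes was 0.25 in mug174Δ and 0.16 in red1Δ. These points share libraries and, for overlapping transcripts, reads. In red1Δ the neighbour had also risen for 132 of the raised members in such pairs, 50.2%, beside 48.4% of all features, and in mug174Δ for 24 of 87, 27.6%, beside 19.8%. The coding gene 15 bases from nam2, SPBC1685.17, fell in red1Δ, at 97.2 and 147 RPKM against 219 and 226 RPKM in WT (-0.89 ± 0.19, adjusted p = 0.011), while mlo3, 70 bases from nam1, rose (0.56 ± 0.09, adjusted p = 0.0053).

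Genes of RNA decay were given by lists, to be read beside the shares of all features raised, 48.4% in red1Δ and 19.8% in mug174Δ. Of 11 tested genes of MTREC and Mmi1, 5 rose and 2 fell in red1Δ and 2, red1 and mmi1, rose in mug174Δ. For red1 the values were 98.2 and 82.7 RPKM in mug174Δ against 62.7 and 57.05 RPKM in WT (0.59, adjusted p = 0.029). The falls in red1Δ were red1 itself and cbc1, a cap-binding subunit (-0.62, adjusted p = 0.0036). The largest rise was that of red5, an MTREC subunit, at 185.6 and 176.7 RPKM in red1Δ against 83.2 and 73.4 RPKM in WT (1.21, adjusted p = 0.00098), and mmi1 rose in red1Δ (0.84, adjusted p = 0.0025) and in mug174Δ (0.67, adjusted p = 0.011). Of 15 tested genes of the nuclear exosome and of TRAMP, its polyadenylating helper, 2 rose and 2 fell in red1Δ and 3 rose in mug174Δ, with no change over 0.5 on the log2 scale in either direction. Of 11 tested genes of 3′ end processing and termination, 5 rose in red1Δ and 1, rna14, in mug174Δ. Of 9 tested genes of cytoplasmic decay, 4 rose and 1 fell in red1Δ, and in mug174Δ ski7 rose (0.77, adjusted p = 0.0064) and the 5′ to 3′ exonuclease gene exo2 fell (-0.66, adjusted p = 0.015).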

How the data were processed

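RNA of whole cells was sequenced from 3 strains with 2 libraries each. The authors deposited RPKM values, reads per kilobase scaled to library size, for 7001 features. The paper names HISAT2, the genome build ASM294v2 and poly(dT) enrichment, while the submitters' labels and processing notes name rRNA depletion, a directional kit, FastQC 0.11.6, STAR 2.5.3a and StringTie 1.3.1c. For the counting tool and its strand setting, the sources used here say nothing. The table's further columns of log2 fold changes and unadjusted p-values, computed by the authors, were not used. Multiplied by length and divided by the value of 1 read, 100% of values were whole reads (tolerance 0.01), 16565908 to 18627129 per library, so low members are limited by read number.

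Features at 1 RPKM or more in at least 2 libraries (5949) were fitted on log2(RPKM + 0.5) with limma 3.58.1 in R 4.3.3, with 1 mean per strain and a trended prior, and p-values were adjusted by Benjamini-Hochberg over all of them. A call is an adjusted p under 0.05. The pseudocount shrinks fold changes of low members. The fits were tested on simulated data. Whole reads recovered in this way were tested with voom weights as an alternative. Other alternatives were pseudocounts of 0.1 and 1 RPKM, no filter or 5 RPKM, median ratio scaling, no trend, the 2 strains alone, a replicate block, and leaving out each library.

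RefSeq ASM294v3 gave names, mRNA spans and sequence: in it 5121 of 5146 coding spans on chromosomes I to III start with ATG and end with a stop codon, and 669 members matched by locus tag, 662 with the same start and end. Named members were, with both libraries beyond both of the other strain and the higher strain averaging 5 RPKM or more, the 10 largest rises and 6 largest falls in each deletion, the 4 largest differences each way between deletions, the 6 highest in WT, tested members with a name, and up to 3 per class of position, mRNA overlap and hexamer number with the smallest p in red1Δ. Members and lists were chosen with earlier results of these data known.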

Additional observations from a re-analysis of the deposited data

How the results depend on the processing

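The counts of called members moved most with the library left out. In mug174Δ against WT the raised members ranged from 0 to 133 and the lowered from 0 to 25, in red1Δ against WT from 193 to 277 and from 8 to 24, and in red1Δ against mug174Δ from 22 to 185 and from 0 to 14. With no filter on low values there were 37 raised and 6 lowered in mug174Δ, 13 lowered in red1Δ, and 68 higher in red1Δ than in mug174Δ. Median ratio scaling gave 26 lowered in mug174Δ and 40 lowered in red1Δ, voom weights 59 raised in mug174Δ, and a fit of only the 2 strains 92 higher in red1Δ than in mug174Δ. The cause of these shifts was not tested, except that leaving out a library leaves fewer residual degrees of freedom. No named member changed direction under any alternative run while called. Replicate numbers are shared between strains without a stated link, and deviations of same-numbered libraries correlated at 0.084 for mug174Δ and WT, 0.143 for red1Δ and WT and -0.010 for red1Δ and mug174Δ over members. With the replicate number as a block, 106 members rose and 24 fell in mug174Δ, 284 and 22 in red1Δ, and 162 and 13 were higher and lower in red1Δ than in mug174Δ. Members under about 1 RPKM rest on few reads, and 2 libraries per strain limit every call.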
